A study of Mus musculus with 6 samples.

Results

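The genes described here encode G protein-coupled receptors whose transcripts differed between libraries labelled as wild-type U14 and libraries labelled as U14 with overexpression of FOXP1. U14 is a mouse cervical carcinoma line, and FOXP1 is a forkhead transcription factor. The members are all rows of the authors' deposited table whose gene ontology annotation holds the exact term "G protein-coupled receptor activity", with Fzd1 left out, which gave 49 of the 1722 genes listed. The table holds only genes that passed the authors' thresholds (at least a 2-fold difference, with the q-value under 0.05), so each member had been selected for its difference. The wild-type group had 3 libraries, numbered 1, 2 and 3. The OEFOXP1 group had 3 libraries, numbered 2, 3 and 4 in the table; number 4 occurs in no sample title, and that library was used by its group alone. The sources used here give no vector, no number of clones and no growth conditions, and do not say if each library had a culture, animal or tumour of its own. The p-values therefore measure only the spread between these libraries, which may be technical.

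G protein-coupled receptors cross the plasma membrane with a bundle of helices and pass the binding of an outside ligand to heterotrimeric G proteins inside the cell. The G proteins act on adenylyl cyclases, phospholipases and exchange factors of small GTPases, and RGS proteins, receptor kinases and arrestins end the signal. Receptors for chemokines, lipid mediators and nucleotides are best known from leukocytes, where they steer migration, whereas adhesion, frizzled class and peptide receptors are known from many tissues.

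Steady-state mRNA was measured as FPKM, fragments scaled to transcript length and library size, which allows levels to be compared between genes. The totals behind these values ran from 16824351 to 20410060 fragments per library. No pair of libraries was a repeat of the same reads: chi-square over degrees of freedom was 14.7 to 26.8 between wild-type libraries and 76.8 to 163.9 between OEFOXP1 libraries. Markers of several leukocyte types were present in the wild-type libraries, and many rose in OEFOXP1. The authors listed 12 of 16 T cell markers and 10 of 12 B cell markers as higher. So were 7 of 8 plasma cell markers and 5 of 15 macrophage markers, beside 9.59% of all genes the authors tested. Of 9 neutrophil markers, 1 was listed as higher (11.1%). The summed level of the listed T cell markers was 52.1 to 91.6 FPKM in wild type and 227 to 268 in OEFOXP1, and that of the listed macrophage markers 1104 to 1717 and 5630 to 7783. Fibroblast markers were present too, with 6 of 12 listed as higher and a summed level of 184 to 209 FPKM in wild type and 491 to 791 in OEFOXP1. The labels name a cell line and cervical tissue and none of these other cell types. Of 12 epithelial markers, Krt18 and Elf3 fell and Epcam rose. The part of these cell types in the receptor results was not tested, and in bulk RNA fewer cells of a type and less RNA per cell cannot be told apart.

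Of the 49 receptor genes, 48 were listed as higher in OEFOXP1 and 1, Gprc5a, as lower. Among all 15689 genes the authors tested, 9.59% were listed as higher and 1.38% as lower; since the members were drawn from the listed genes, nothing is read from their own count. The authors' deposited table gave the members a median log2 fold of 1.55, against 1.38 over all listed genes, which include more genes that fell. Over the genes listed as higher alone, the medians were 1.56 and 1.46. Most receptors had low transcript levels, with a median of 1.35 FPKM over the members' wild-type means and 3.23 over their OEFOXP1 means. A mean of at least 10 FPKM was reached by 3 receptors in wild type (Gprc5a, Cxcr3 and Cxcr4) and by 11 in OEFOXP1. The 2 groups did not overlap for 47 of the 49 receptors, the exceptions being Cxcr5 and Oxtr. Of all listed genes, 93.0% did not overlap.

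**Figure D1:**
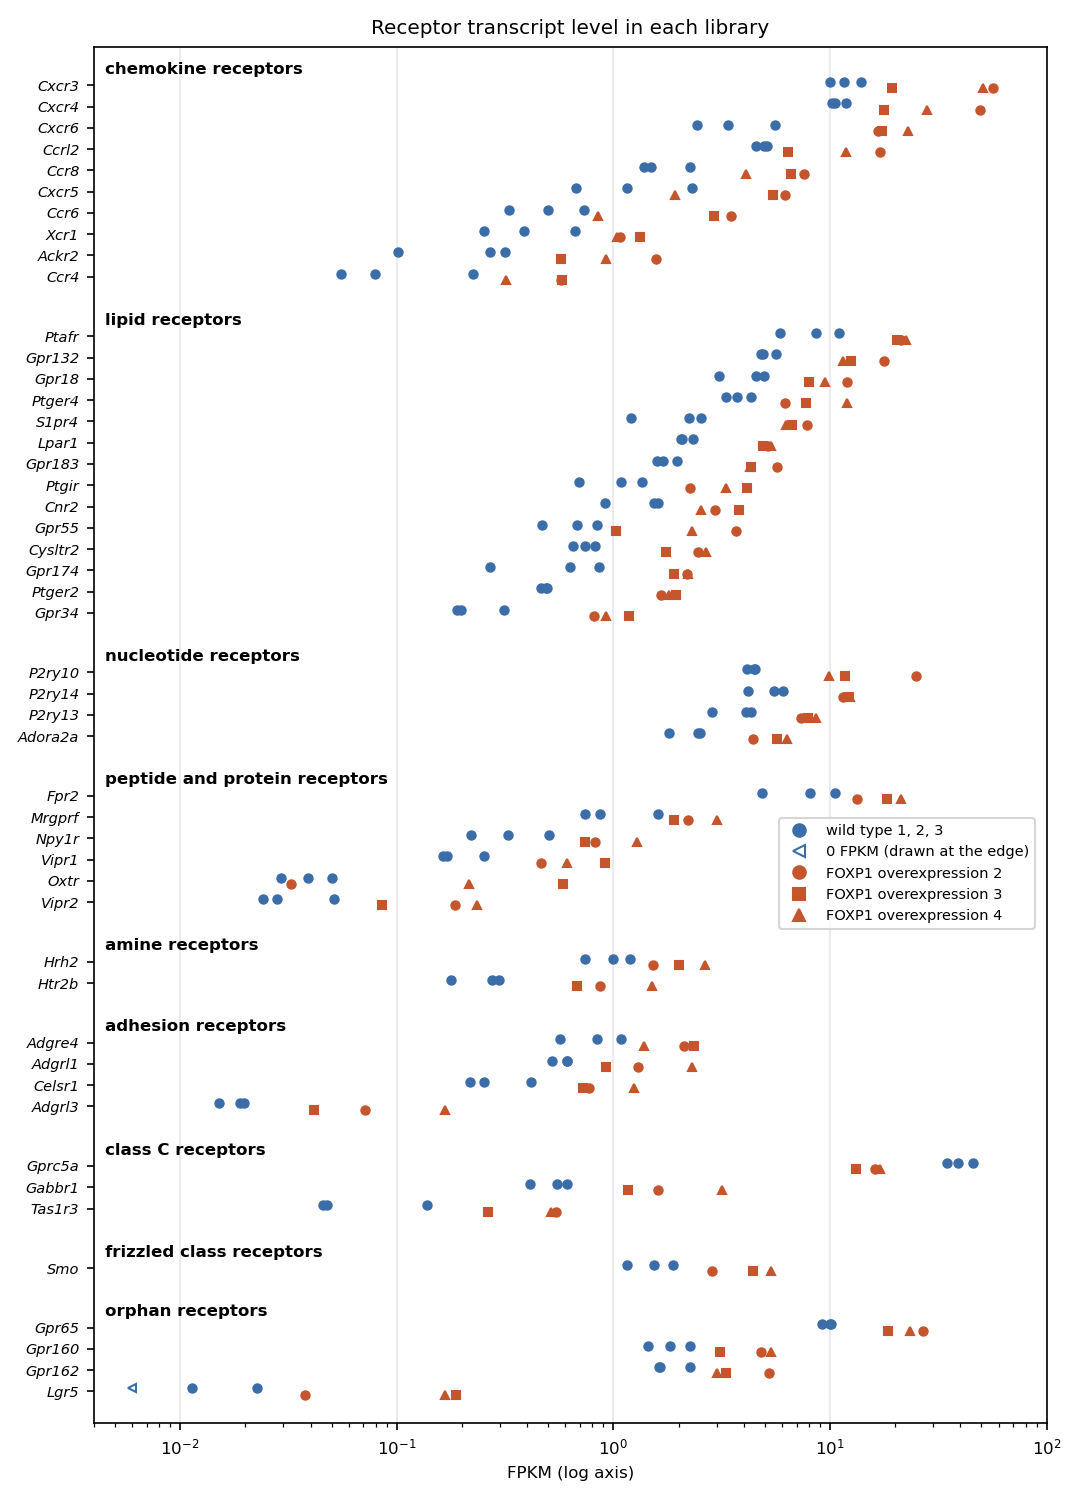
FPKM of 48 of the receptor genes in each library on a log axis, grouped by ligand class. Circles in blue are the 3 wild-type libraries and symbols in orange the 3 OEFOXP1 libraries; all receptors drawn except Gprc5a lie further right in OEFOXP1, with overlap of the groups for Cxcr5 and Oxtr. An open triangle marks a library listed at 0, which occurred for Lgr5 only.

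Of the chemokine receptors 10 were members, each listed as higher, and Cxcr3 and Cxcr4 had the highest OEFOXP1 means of the members. In OEFOXP1 library 3 alone, the lipid receptor Ptafr stood above Cxcr3, and Gpr65 and Fpr2 above Cxcr4. Cxcr3, the receptor of the interferon-induced chemokines Cxcl9, Cxcl10 and Cxcl11 (Entrez 12766), read 11.6, 13.8 and 9.95 FPKM in wild-type libraries 1, 2 and 3 and 56.7, 19.4 and 50.5 FPKM in OEFOXP1 libraries 2, 3 and 4. OEFOXP1 libraries 2 and 4 stood far above library 3, which still lay above each wild-type library. The authors' deposited table gave a log2 fold of 1.77, with a q-value of 1.02e-05. Cxcr4, the receptor of Cxcl12 that holds cells in bone marrow and stroma (Entrez 12767), read 10.5, 10.2 and 11.8 FPKM in wild type and 49.1, 17.7 and 28.02 FPKM in OEFOXP1. Library 2 was again the highest and library 3 the lowest of the OEFOXP1 libraries, without overlap with wild type.

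Cxcr6, the receptor of the membrane-bound chemokine Cxcl16 on T and NK cells (Entrez 80901), rose more than Cxcr3 and Cxcr4 did on the log2 scale. It read 2.44, 5.55 and 3.38 FPKM in wild type and 16.6, 17.3 and 22.8 FPKM in OEFOXP1. The OEFOXP1 libraries lay close together, and the authors' deposited table gave a log2 fold of 2.25, with a q-value of 2.06e-11. Ccr8, a receptor of regulatory and helper T cells (Entrez 12776), read 1.48, 1.39 and 2.26 FPKM in wild type and 7.56, 6.61 and 4.10 FPKM in OEFOXP1, with library 4 the lowest. Ccrl2, a chemerin-binding receptor that does not signal by itself (Entrez 54199), read 5.10, 4.54 and 4.94 FPKM in wild type and 16.9, 6.37 and 11.9 FPKM in OEFOXP1. Its library 3 lay close to wild type and its library 2 furthest away.

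Cxcr5 and Ccr6 shared another order of the OEFOXP1 libraries, with library 2 the highest and library 4 the lowest. Ccr8, P2ry10, Gpr132, S1pr4, Gpr183 and Gpr162 had that order too. Cxcr5, the receptor of Cxcl13 that draws B cells into follicles (Entrez 12145), read 0.671, 2.31 and 1.16 FPKM in wild type and 6.17, 5.48 and 1.92 FPKM in OEFOXP1. OEFOXP1 library 4 lay under wild-type library 2, so the groups overlapped. Ccr6, the receptor of Ccl20, read 0.850 FPKM in OEFOXP1 library 4 and 3.49 and 2.92 in libraries 2 and 3, with 0.328 to 0.732 in wild type. The other members of the class were low. Xcr1, the receptor of cross-presenting dendritic cells for Xcl1, rose from 0.434 ± 0.208 FPKM (SD, n = 3) to 1.15 ± 0.162. Ccr4, the receptor of Ccl17 and Ccl22, rose from 0.120 ± 0.0921 to 0.492 ± 0.148 FPKM, and Ackr2, a scavenger of inflammatory chemokines, from 0.229 ± 0.113 to 1.02 ± 0.509, with 1.57 in library 2.

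The 14 receptors for lipids made up the largest class, and all 14 were listed as higher. Ptafr, the receptor of platelet-activating factor on phagocytes (Entrez 19204), read 5.88, 8.65 and 10.99 FPKM in wild type and 21.3, 20.5 and 22.3 FPKM in OEFOXP1. The OEFOXP1 libraries differed among themselves by less than the wild-type libraries did. Gpr132, a receptor for lysophospholipids and oxidised fatty acids (Entrez 56696), read 4.92, 5.62 and 4.80 FPKM in wild type and 17.7, 12.4 and 11.4 FPKM in OEFOXP1, and Gpr18 (Entrez 110168) read 3.09, 4.55 and 4.96 and then 11.9, 8.02 and 9.46 FPKM. In each of these 3 genes the lowest OEFOXP1 library stood above the highest wild-type library.

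Receptors of prostaglandins, which raise or lower cyclic AMP, rose at different levels. Ptger4, a receptor of prostaglandin E (Entrez 19219), read 3.32, 4.31 and 3.71 FPKM in wild type and 6.20, 7.73 and 12.01 FPKM in OEFOXP1, with library 4 the highest. Ptgir, the prostacyclin receptor (Entrez 19222), read 0.691, 1.35 and 1.08 FPKM in wild type and 2.26, 4.11 and 3.31 FPKM in OEFOXP1. Ptger2, the other prostaglandin E receptor listed, was low but close to uniform within each group, at 0.480 ± 0.0160 FPKM (SD, n = 3) and 1.80 ± 0.139. For Ptger2 the authors' deposited table gave a log2 fold of 1.85, with a q-value of 4.95e-09.

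Among receptors for lysophospholipids and sterols, S1pr4, the leukocyte receptor of sphingosine-1-phosphate (Entrez 13611), read 1.21, 2.53 and 2.23 FPKM in wild type and 7.85, 6.67 and 6.24 FPKM in OEFOXP1. Lpar1, a receptor of lysophosphatidic acid known from fibroblasts and nerve sheaths (Entrez 14745), read 2.07, 2.34 and 2.05 FPKM in wild type and 5.19, 4.92 and 5.33 FPKM in OEFOXP1. The OEFOXP1 libraries lay close together, and its q-value in the authors' deposited table was 2.54e-10. Gpr183, which guides B cells along oxysterol gradients (Entrez 321019), read 1.60, 1.97 and 1.69 FPKM in wild type and 5.66, 4.31 and 4.25 FPKM in OEFOXP1, without overlap. The remaining lipid receptors had means of 0.233 to 1.35 FPKM in wild type and 0.972 to 3.09 in OEFOXP1. They were the cannabinoid receptor Cnr2, Gpr55, the leukotriene receptor Cysltr2, and Gpr174 and Gpr34, which respond to lysophosphatidylserine. Gpr55 read 3.70 FPKM in OEFOXP1 library 2 and 1.03 in library 3, against 0.468 to 0.837 in wild type.

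The 4 nucleotide and nucleoside receptors rose by a median of 1.17 on the log2 scale in the authors' deposited table, the lowest median among classes with at least 4 members. P2ry10, named for the purinergic family and reported to respond to lysophospholipids (Entrez 78826), read 4.13, 4.46 and 4.49 FPKM in wild type and 25.05, 11.8 and 9.93 FPKM in OEFOXP1. Its library 2 stood far above the other OEFOXP1 libraries. P2ry14, the receptor of UDP-glucose (Entrez 140795), read 4.17, 6.04 and 5.53 FPKM in wild type and 11.4, 12.2 and 12.4 FPKM in OEFOXP1. P2ry13, a receptor of ADP (Entrez 74191), read 2.86, 4.30 and 4.09 and then 7.31, 7.89 and 8.65 FPKM. The adenosine receptor Adora2a, which raises cyclic AMP and restrains T cells (Entrez 11540), read 1.80, 2.51 and 2.45 and then 4.40, 5.71 and 6.30 FPKM. In these 3 genes the OEFOXP1 libraries lay close to each other and above all wild-type libraries. Reads of P2ry10 may be shared with its paralogue P2ry10b, which is not listed.

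Of the receptors for peptides, Fpr2, which detects formylated bacterial peptides and is carried by neutrophils and macrophages (Entrez 14289), was the only one above 3 FPKM. It read 4.84, 10.6 and 8.10 FPKM in wild type and 13.3, 18.3 and 21.3 FPKM in OEFOXP1, without overlap, though reads may be shared with other genes of its family. Npy1r, a neuropeptide Y receptor, Vipr1 and Vipr2, the receptors of vasoactive intestinal peptide, and Mrgprf, of the MAS-related family, had OEFOXP1 means of 0.169 to 2.37 FPKM. The oxytocin receptor Oxtr rested on few fragments: 4, 3 and 5 in wild type and 3, 66 and 21 in OEFOXP1 libraries 2, 3 and 4. Library 2 was thus at the wild-type level, and voom did not call the gene (log2 fold 2.01, SE 1.15, limma adjusted p = 0.115). The 2 amine receptors, Hrh2 for histamine and Htr2b for serotonin, rose from 0.975 ± 0.231 to 2.06 ± 0.568 FPKM and from 0.25 ± 0.0635 to 1.02 ± 0.436 (SD, n = 3 in each group).

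Adhesion receptors, which carry long extracellular domains, stayed under 2.4 FPKM in all libraries. Adgre4, of the family of the macrophage antigen F4/80, rose from 0.832 ± 0.257 FPKM (SD, n = 3) to 1.95 ± 0.498. The latrophilin Adgrl1 rose from 0.582 ± 0.0513 to 1.51 ± 0.721 and the planar polarity cadherin Celsr1 from 0.296 ± 0.106 to 0.914 ± 0.288. Adgrl3, another latrophilin, was counted 14 times over the wild-type libraries and 71 times over the OEFOXP1 libraries.

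Class C held the only receptor that fell. Gprc5a, a retinoic acid-induced receptor of epithelial cells (Entrez 232431), read 45.5, 39.04 and 34.5 FPKM in wild type and 16.1, 13.1 and 16.9 FPKM in OEFOXP1. It was the most abundant receptor among the members in wild type, and every OEFOXP1 library lay under every wild-type library. The authors' deposited table gave it a log2 fold of -1.43, with a q-value of 8.95e-14, and voom gave -1.43 with an SE of 0.23 (limma adjusted p = 0.00291). The epithelial markers listed with it, Krt18 and Elf3, fell by 1.24 and 1.4 on the log2 scale in the authors' deposited table, while Epcam rose; the link was not tested. The other members of the class rose: Gabbr1, a subunit of the GABA-B receptor, from 0.523 ± 0.101 FPKM (SD, n = 3) to 1.98 ± 1.05, with 3.17 in library 4, and the sweet and umami taste subunit Tas1r3 from 0.0768 ± 0.0523 to 0.440 ± 0.152.

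Smo, the frizzled class receptor that relays hedgehog signals (Entrez 319757), read 1.88, 1.15 and 1.54 FPKM in wild type and 2.85, 4.40 and 5.35 FPKM in OEFOXP1. The class grouped as orphans was led by Gpr65, a receptor that senses protons (Entrez 14744). It read 10.04, 9.21 and 10.1 FPKM in wild type and 26.8, 18.6 and 23.3 FPKM in OEFOXP1. The groups did not overlap. Gpr160 (Entrez 71862) read 1.45, 1.83 and 2.27 FPKM in wild type and 4.82, 3.12 and 5.34 FPKM in OEFOXP1. Gpr162 (Entrez 14788) read 1.64, 2.25 and 1.63 and then 5.23, 3.30 and 3.02 FPKM. Gpr162 lay just inside the authors' thresholds, at 1.01 on the log2 scale in the authors' deposited table, and was not called in voom (log2 fold 0.97, SE 0.32, limma adjusted p = 0.0179). The stem cell receptor Lgr5, which binds R-spondins, was counted 2, 1 and 0 times in wild type and 3, 18 and 14 times in OEFOXP1. The ratio of summed fragments, scaled to library totals, was 11.7, with an exact (Clopper-Pearson) 95% interval of 3.70 to 59.7 that covers counting error only.

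Promoter sequence was looked at because FOXP1 is a factor that binds forkhead motifs. RefSeq windows of build GRCm38.p6, from 250 bases before to 50 bases after a gene's start, were matched by Entrez identifier for 40 of the 49 receptors. Forkhead cores TGTTTAC and TGTTTAT were searched on both strands. TGTTTAC stood in windows of 2 of the 40 receptors (Ptafr and P2ry14), against 4.05% of all genes with a window. TGTTTAT stood in those of 3 (Cxcr3, Cysltr2 and Gpr18), against 5.28% of all genes. At least 1 of the motifs was held by 12.5% of the receptors and 9.01% of all genes. A match is a string of letters and not a bound site. The windows of 4 well-expressed receptors are shown, 3 with a match in capitals and Cxcr4 without one, chosen after the search:
Cxcr3, chrX:101734098-101734397, minus strand: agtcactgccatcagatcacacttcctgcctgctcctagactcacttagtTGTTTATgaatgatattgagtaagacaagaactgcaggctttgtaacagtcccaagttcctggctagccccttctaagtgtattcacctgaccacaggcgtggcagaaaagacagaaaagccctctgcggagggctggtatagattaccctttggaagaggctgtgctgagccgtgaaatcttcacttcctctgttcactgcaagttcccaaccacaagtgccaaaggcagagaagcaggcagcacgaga
Cxcr4, chr1:128592250-128592549, minus strand: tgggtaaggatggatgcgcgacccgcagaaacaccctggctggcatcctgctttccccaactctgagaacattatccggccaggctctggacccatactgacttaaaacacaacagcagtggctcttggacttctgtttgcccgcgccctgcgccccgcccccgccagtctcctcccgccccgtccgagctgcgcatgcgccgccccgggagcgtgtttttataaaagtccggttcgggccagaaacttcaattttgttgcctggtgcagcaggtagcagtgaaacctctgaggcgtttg
Ptafr, chr4:132563817-132564116, plus strand: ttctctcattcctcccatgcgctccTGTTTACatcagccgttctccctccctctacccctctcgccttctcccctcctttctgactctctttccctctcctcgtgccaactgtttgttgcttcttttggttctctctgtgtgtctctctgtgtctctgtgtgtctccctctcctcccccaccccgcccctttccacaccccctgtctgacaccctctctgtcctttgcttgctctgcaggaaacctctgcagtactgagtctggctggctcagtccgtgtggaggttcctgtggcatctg
P2ry14, chr3:59131069-59131368, minus strand: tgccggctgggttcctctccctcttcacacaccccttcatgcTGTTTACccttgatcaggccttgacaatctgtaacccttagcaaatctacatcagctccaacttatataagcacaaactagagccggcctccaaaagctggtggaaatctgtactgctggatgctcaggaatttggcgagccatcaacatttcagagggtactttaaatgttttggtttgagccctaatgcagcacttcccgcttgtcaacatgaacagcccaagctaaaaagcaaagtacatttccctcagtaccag

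The OEFOXP1 libraries did not move as a block. For 16 of the 49 receptors (32.7%) the highest OEFOXP1 library stood more than 2-fold above the lowest, as it did for 32.8% of all listed genes. Library 3 was the lowest in 11 of these 16 (68.8%), against 52.1% of the listed genes with such a spread, and library 4 was the lowest in Cxcr5, Ccr6 and P2ry10. Chemokine receptors were highest in library 2 for 7 of 10 genes, where 31.2% of all listed higher genes were highest in that library. Peptide receptors were highest in library 4 for 4 of 6, where 46.4% of all listed higher genes were. Over the 10 chemokine receptors the log2 ratio to wild type had a median of 2.17, 1.78 and 1.33 in OEFOXP1 libraries 2, 3 and 4. In wild type, library 1 was the lowest of the 3 for 28 of the 49 receptors and for 969 of the 1722 listed genes.

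**Figure D2:**
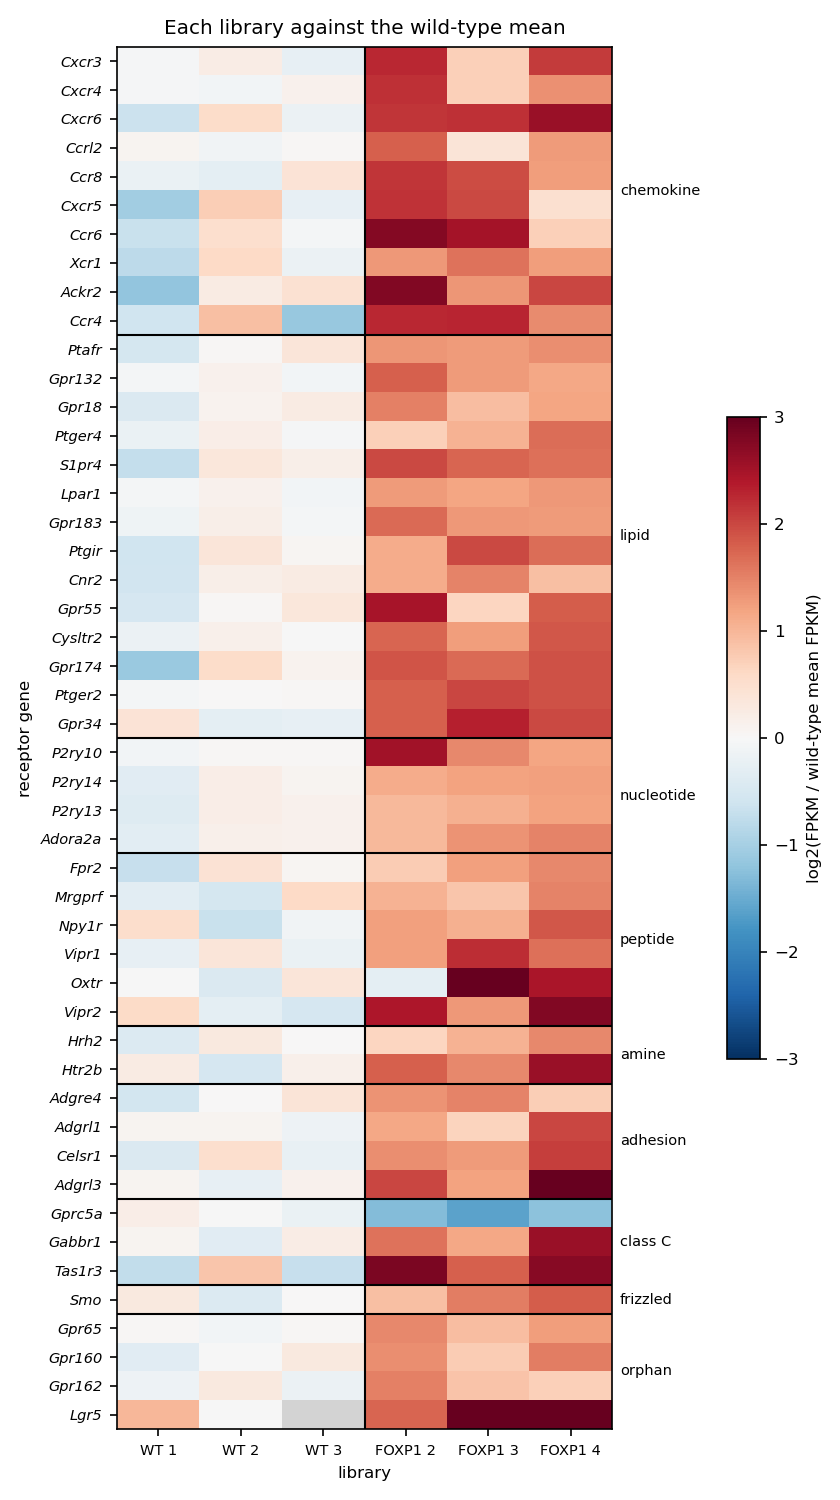
Log2 ratio of each library to the wild-type mean FPKM for 48 of the receptor genes, by ligand class. Red is above the wild-type mean and blue below; the chemokine block is strongest in OEFOXP1 library 2, with Cxcr5 and Ccr6 pale in library 4 and Cxcr3, Cxcr4 and Ccrl2 pale in library 3. The grey cell is a library listed at 0, and ratios above 3 are drawn at the end of the colour scale.

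Marker genes of leukocytes differed between the OEFOXP1 libraries as well. The 7 listed plasma cell markers summed to 3912, 269 and 1378 FPKM in libraries 2, 3 and 4, against 189.9 to 287 in wild type. Cxcr3 and Cxcr4 had this order too, with library 2 the highest and library 3 the lowest. So did Ccrl2, Gpr65, Gpr18, Gpr55, Ackr2 and Tas1r3, and the share of all listed genes with this order was not counted. The 10 listed B cell markers summed to 302, 127 and 119 FPKM in libraries 2, 3 and 4, against 26.9 to 54.3 in wild type, so libraries 3 and 4 hardly differed in the sum. Of these 10 markers 8 were lowest in library 4, as were Cxcr5, Ccr6 and other receptors, among them Ccr8, P2ry10 and S1pr4. The other 2, Cd79a and Cd79b, make up most of the sum and were lowest in library 3, as Cxcr3 and Cxcr4 were. The summed T cell markers varied less between the OEFOXP1 libraries (227 to 268 FPKM), as did Cxcr6, Ptafr and P2ry14. Single T cell markers varied more than the sum. Cd8a and Cd8b1 differed 2.05-fold and 2.24-fold between the highest library, 4, and the lowest, 2. Icos and Cd28 were highest in library 2 and lowest in library 3, as Cxcr3 and Cxcr4 were. Markers of lymphatic endothelium, 5 of 7 listed as higher, summed to 55.04, 3.17 and 17.5 FPKM in libraries 2, 3 and 4. In wild type they summed to 0.380 to 1.12. Their OEFOXP1 order is also that of Cxcr3, Cxcr4 and the receptors named with them above. Ccl21a made up most of the lymphatic sum, at 49.4, 2.20 and 13.6 FPKM in libraries 2, 3 and 4. Mmrn1, Reln and Prox1 had that order too, but Stab2 did not (0.235, 0.308 and 0.325 FPKM). Listed fibroblast markers summed to 491, 562 and 791 FPKM in libraries 2, 3 and 4. None of the 9 pericyte and smooth muscle markers and none of the 10 blood endothelium markers was listed. Whether cells of these types account for the receptor transcripts was not tested.

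**Figure D3:**
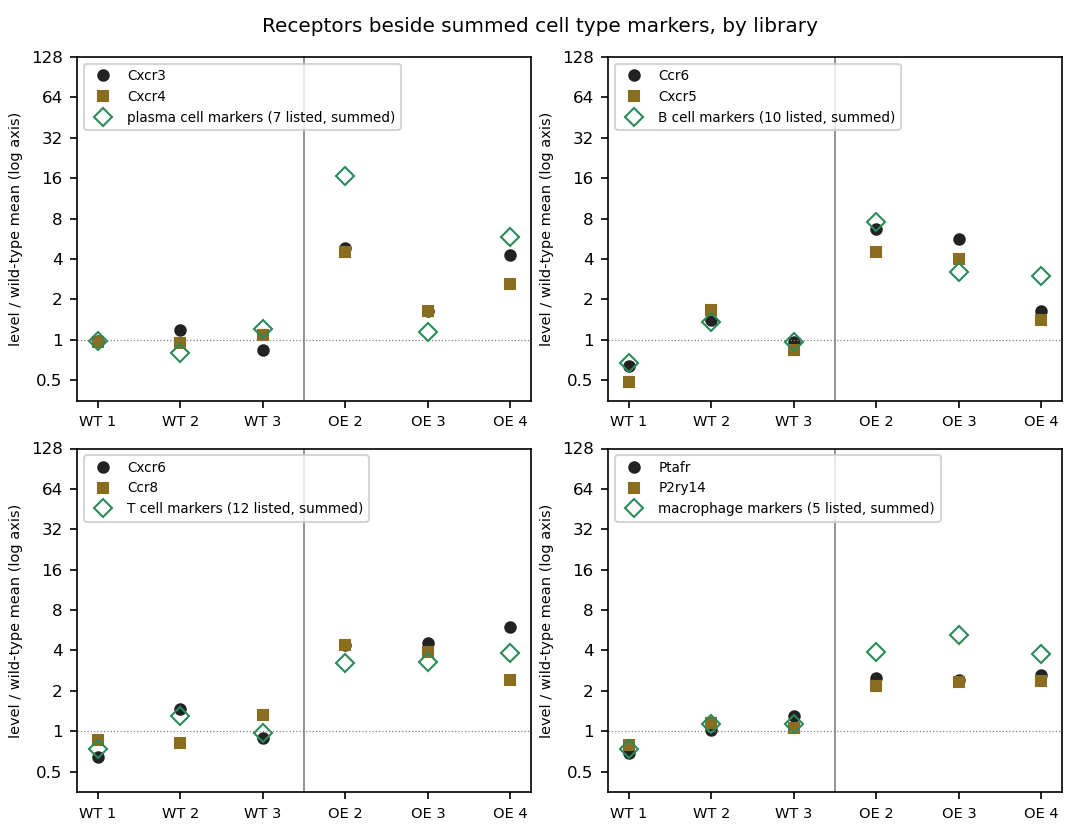
Level of receptor pairs (filled symbols) and summed level of the listed markers of a cell type (open diamonds) in each library, divided by the wild-type mean, on a log axis. OE stands for OEFOXP1; Cxcr3, Cxcr4 and the plasma cell markers are lowest in OEFOXP1 library 3, and Ccr6 and Cxcr5 are lowest in library 4, where the summed B cell markers lie about level with library 3. Lyz2 makes up most of the macrophage sum.

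Set against families of receptors listed in full, the changed members were unevenly spread. The 9 families named 364 receptors, of which 51 (14.01%) were in the table, against 11.0% of all genes the authors tested. Chemokine receptors were listed as higher for 10 of 24 (41.7%), lipid receptors for 14 of 43 (32.6%) and nucleotide receptors for 4 of 13 (30.8%), where 9.59% of all genes tested were higher. The shares were 5.22% for 115 peptide receptors and 5.13% for 39 amine receptors, under that background. Adhesion receptors (4 of 30) and orphans (7 of 68) stood near it. Gpr137b and Gpr155 were listed but lack the ontology term. Receptors outside the table include any that the authors did not test, and the families were chosen with results known, so these shares are a description.

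**Figure D4:**
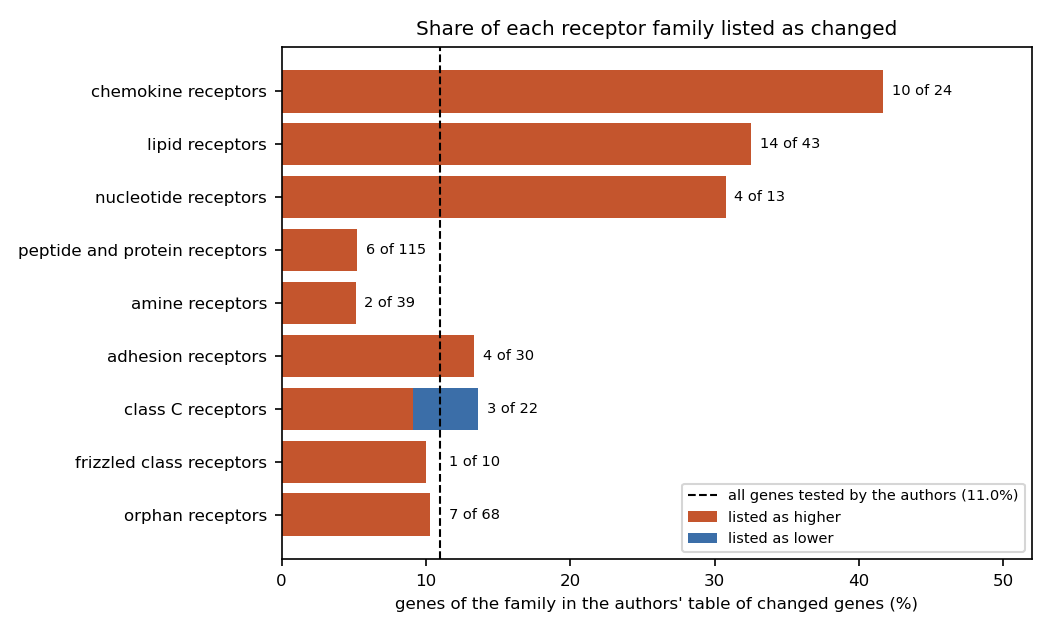
Share of each receptor family in the authors' table of changed genes, in percent of the genes of the family, with the count beside each bar. Orange is higher and blue lower in OEFOXP1; chemokine, lipid and nucleotide receptors lie at 30.8% to 41.7%, right of the dashed line at 11.0% for all genes tested.

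Some partners of the receptors inside the cell were also listed as higher, and no gene of the 4 partner lists was listed as lower. Over all genes the authors tested, 9.59% were higher and 1.38% lower. Of 31 G protein effectors 10 rose (32.3%), and their median was 1.22 on the log2 scale in the authors' deposited table. They included Prex1 and Dock2, exchange factors for Rac in migrating leukocytes, which rose from 13.4 ± 2.30 FPKM (SD, n = 3) to 30.6 ± 5.56 and from 11.4 ± 3.67 to 27.9 ± 4.29. Pik3r5, the regulatory subunit of the phosphoinositide kinase that G proteins switch on, rose from 6.95 ± 1.74 to 17.55 ± 4.67 FPKM. Of 21 RGS proteins, which end G protein signals, 5 rose (23.8%), led by Rgs1, from 11.6 ± 0.254 to 26.1 ± 4.53 FPKM, Rgs14 and Rgs16. Of 33 G protein subunits, Gng2 and Gnaz rose (6.06%), a share under that of all genes tested. Of 13 receptor kinases, arrestins and RAMPs, Grk3, Grk4 and Ramp1 were listed as higher (23.1%), and the groups overlapped for Ramp1.

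Ligands of some of the receptors rose with them. Of 36 chemokines 9 rose (25%) and 1, Ppbp, fell, beside 9.59% and 1.38% of all genes tested. Ppbp read 8.07, 0.297 and 1.85 FPKM in wild type and 0.0549, 0.226 and 0.260 in OEFOXP1. Wild-type library 1 thus carried most of its fall, and wild-type library 2 lay close to OEFOXP1. The most abundant chemokines that rose were Ccl8, Ccl6 and Ccl5. The pairs named next were chosen after their values were seen. Cxcl16, the ligand of Cxcr6, rose from 73.7 ± 5.57 FPKM (SD, n = 3) to 168 ± 25.1, and Cxcl12, the ligand of Cxcr4, from 16.9 ± 2.53 to 46.4 ± 7.35. Ccl8, which binds Ccr8 in mice, rose from 344 ± 135 to 1014 ± 543 FPKM, and Ccl22, a ligand of Ccr4, from 6.89 ± 2.13 to 19.7 ± 4.67. The ligands of Cxcr5, Ccr6 and Xcr1 on the list (Cxcl13, Ccl20 and Xcl1) were not listed as changed. Of 29 enzymes and transporters that make or degrade lipid and nucleotide ligands, 6 rose (20.7%) and 1 fell. Pla2g7, which breaks down platelet-activating factor, the ligand of Ptafr, rose from 20.6 ± 4.42 to 94.8 ± 1.22 FPKM, and Entpd1, which breaks down extracellular ATP and ADP, from 14.95 ± 2.09 to 38.3 ± 7.07. Ptges, a synthase of prostaglandin E, fell from 59.7 ± 9.38 to 30.5 ± 4.08 FPKM, while the prostaglandin E receptors Ptger2 and Ptger4 rose. The prostaglandin enzymes Ptgs2 and Hpgd, both at lower levels, rose from 1.34 ± 0.345 to 2.99 ± 1.30 and from 2.88 ± 0.628 to 6.30 ± 1.46 FPKM.

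Other annotations of the receptors were counted as well. The pathway column placed 20 of the 49 receptors (40.8%) in neuroactive ligand-receptor interaction and 8 in chemokine signalling, against 2.03% and 2.15% of all listed genes. Chemotaxis was annotated for 12 receptors (24.5%), against 1.92% of all listed genes. The members were chosen by a receptor annotation that overlaps these terms, so shares above those of all listed genes follow from that choice. In the gene order of GRCm38.p6, Gpr18 and Gpr183 are direct neighbours on chromosome 14, as are Cxcr6 and Xcr1 on chromosome 9. P2ry13 and P2ry14 on chromosome 3 and P2ry10 and Gpr174 on chromosome X are each separated by 1 protein-coding gene. Chromosome 9 carries 8 of the 49 receptors, 7 of them chemokine receptors.

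The calls were tried on read counts rebuilt from the FPKM values, with limma's voom. On all 6 libraries voom called 46 receptors higher and 1 lower, where 81.6% and 12.4% of the 1722 listed genes were called so. Of the 49 receptors, 28 were called in each of the 6 fits that left out 1 library, among them Cxcr3, Cxcr6, Ccr8, Ptafr, S1pr4, Lpar1, Gpr65 and Gprc5a. How many of all listed genes were called in each of the 6 fits was not counted. Nothing about receptors as a group is therefore read from the 28. Leaving out wild-type library 1 lowered the number called higher to 30, with 58.8% of all listed genes called higher in that fit. Among those lost were Fpr2 (log2 fold 0.85), P2ry13 (0.86), Gpr18 (0.95) and P2ry14 (0.99), as well as Cxcr5 (1.22, limma adjusted p = 0.112) and Ccr6 (1.69, adjusted p = 0.0650). Cxcr4 was under the fold threshold without OEFOXP1 library 2 (log2 fold 0.95) and Ptger4 without OEFOXP1 library 4 (0.86). Ccrl2 kept its call in 2 of the 6 fits and Oxtr in 1, that without OEFOXP1 library 2. With adjustment over all genes the authors tested, voom called 22 receptors higher, beside 45.1% of all listed genes, with 7.72% of these called lower. Cxcr3 (limma adjusted p = 0.0518) and Cxcr4 (limma adjusted p = 0.0697) lost their calls in that setting. Of the chemokine receptors, only Cxcr6 and Ccr8 kept theirs. The genes outside the table could not be fitted, so each background of these fits is over the listed genes. The adjustment over all genes tested counted the unfitted genes as ranked last. Its adjusted p-values are thus upper limits for the p-values of this fit. The share called higher was 36.5% in limma's trend fit, 79.1% with the pseudocount of 0.1, 47.3% after the filter of 1 FPKM and 35.5% without the trend, for 19, 42, 19 and 19 receptors. The share called lower was 4.12%, 8.65%, 5.32% and 4.07% in these fits, with Gprc5a the only receptor. Leaving out wild-type library 2 or 3 gave 71.4% and 75.4% higher and 10.3% and 12.1% lower, and leaving out wild-type library 1 gave 9.93% lower. Leaving out OEFOXP1 library 2, 3 or 4 gave 75.5%, 80.3% and 73.3% higher and 9.35%, 11.7% and 10.3% lower. With a block for the replicate number the shares were 58.4% and 7.84%, and 36 receptors were called higher. The folds of that fit rest on libraries 2 and 3 of each group alone.

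**Figure D5:**
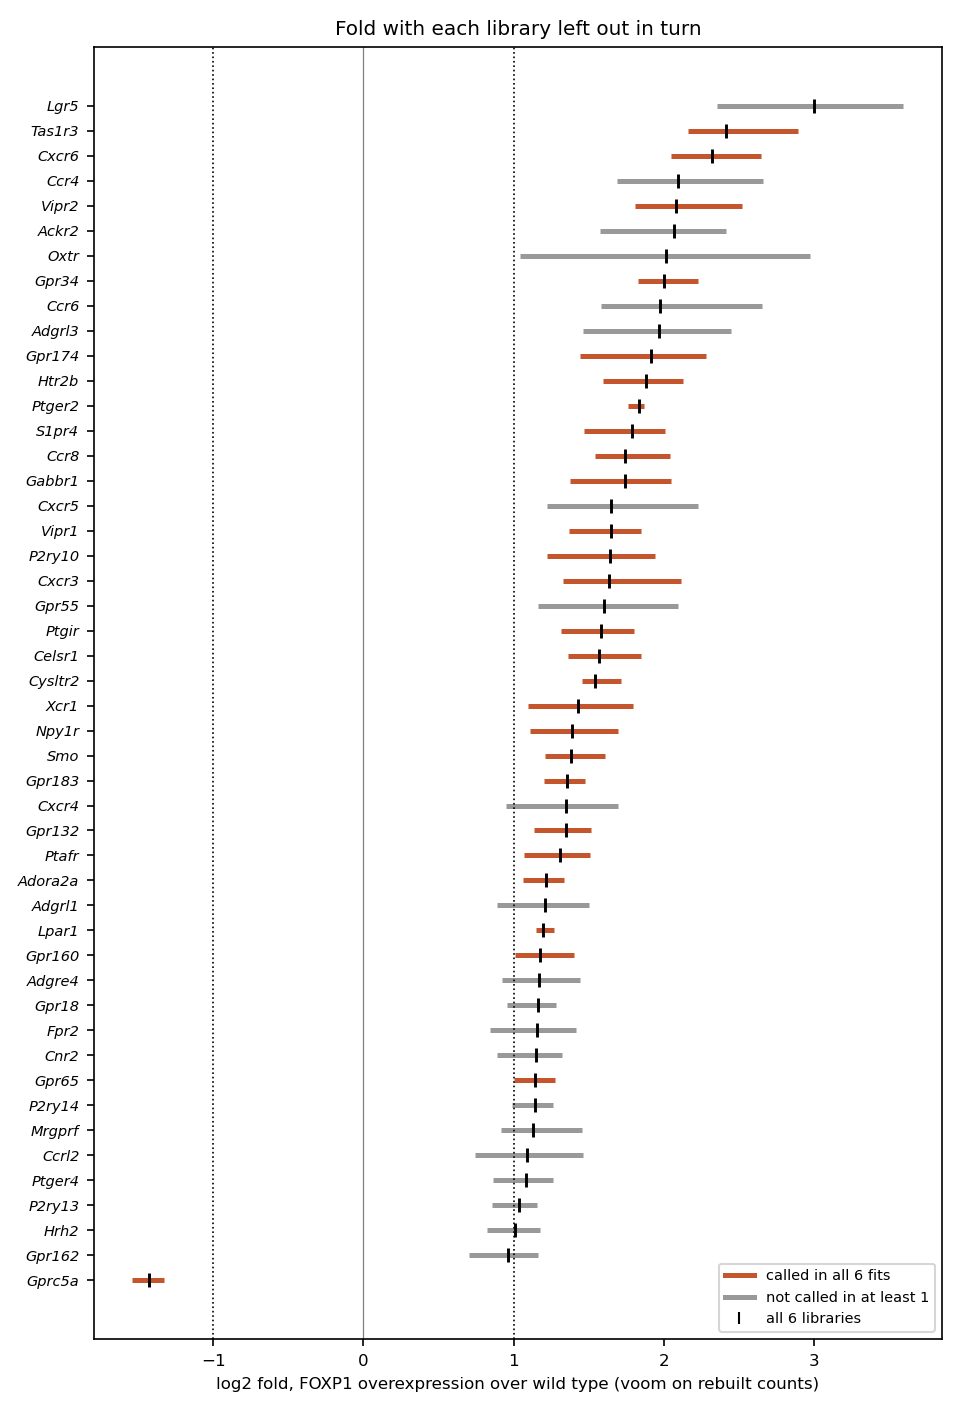
Log2 fold of 48 of the receptor genes, OEFOXP1 over wild type, in voom on rebuilt counts. Bars span the lowest to the highest value over the 6 fits that each leave out 1 library, ticks are the fit on all libraries, and dotted lines mark the fold threshold of 1 on the log2 scale in either direction; orange bars belong to receptors called in all 6 fits.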

How the data were processed

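Poly(A)-selected RNA was sequenced as paired ends. The tools Trimmomatic, HISAT2 and DESeq and the human build hg19 are named per the submitters' processing notes, although the table's gene symbols are those of mouse. For the read counter, annotation and strandedness nothing is stated in the sources.

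The authors' deposited table holds 1 FPKM value per gene and library (fragments scaled to transcript length and library size), a unit settled from the numbers. Beside it stand the authors' mean normalised signal per group, their fold ratio, log2 fold, p-value and q-value. All 1722 rows have q under 0.05 and a fold of at least 2. Dividing the lowest p-value's q by that p put the authors' tested genes at 15689. Main calls are the authors' own listing, so every receptor described had already passed their thresholds.

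Read counts were rebuilt from the deposited FPKM and the authors' group means; 100.0% of 10332 values were whole within 0.01. Limma 3.58.1 (R 4.3.3), tested on simulated data, was run as voom on these counts with the authors' rebuilt size factors, and with a trend on log2(FPKM + 1), Benjamini-Hochberg adjusted over the 1722 listed genes. Calls needed an adjusted p under 0.05 and a log2 fold of at least 1. Alternatives were a pseudocount of 0.1, a filter of 1 FPKM on the higher group's mean, no trend, adjustment over all 15689 genes, a replicate block and leaving out each library. The adjustment over 15689 genes used p-values of the listed genes only.

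The 30 gene lists, the receptor families among them, were chosen with earlier results of these data known. Values per library are given for receptors whose higher group mean reached the median of that mean over the receptors (3.23 FPKM) and for any that fell, 25 in all, of which 1 is not reported here by name or value, though it stays in the counts and medians. Where reads of overlapping or near-identical genes were counted together or split cannot be checked from the table.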

Additional observations from a re-analysis of the deposited data

How the results depend on the processing

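The number of receptor genes called higher was 48 in the authors' deposited table. It was 19 with limma's trend fit on log2(FPKM + 1), 19 after the filter of 1 FPKM, which 39 of the 49 receptors passed, and 19 without the trend. With voom adjusted over all genes tested it was 22. Over the 6 voom fits that each left out a library it ran from 30 to 44. The median log2 fold over the 49 receptors was 1.55 in the authors' deposited table. It was 0.92 in limma's trend fit, 0.92 without the trend, 0.99 after the filter and 1.35 with the pseudocount of 0.1. The pseudocount draws low values together by construction; the other causes were not tested. Over the fits that left out a library the median ran from 1.33 to 1.62. Gprc5a was called lower in every fit run, and no receptor changed its direction in any of them.

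The labels do not say that replicate numbers mark a shared culture or day, and only numbers 2 and 3 occur in both groups. The deviations of same-numbered libraries from their group means had a correlation of 0.02 for number 2 and 0.08 for number 3. With the replicate block, voom called 36 receptors higher, with a median log2 fold of 1.42. Wild-type library 1 and OEFOXP1 library 4 have no partner in the block. The folds of this fit therefore rest on libraries 2 and 3 of each group alone. Receptors with few fragments are limited by depth: 4 of the 49 had at most 20 fragments over the 3 wild-type libraries.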
